A study of Caenorhabditis elegans with 2 samples.

Results

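The origin recognition and licensing genes of *Caenorhabditis elegans* comprise 7 of the 19985 annotated protein-coding genes, taken from a fixed list of names: *orc-1*, *orc-2*, *orc-3*, *orc-4*, *orc-5*, *cdc-6* and *cdt-1*. For each gene, LIN-35 ChIP-seq regions were collected whose summit lay within 1000 bp of the annotated gene start on build ce11 (equal to WBcel235). The study has 1 group and no second condition, represented by 2 ChIP-seq libraries that the labels number as biological replicates 2 and 3. Both came from strain YL402, as whole young adults of mixed sex. YL402 carries the *unc-119* allele ed3 on chromosome III and the integrated transgene vrIs56, which holds a rescuing *unc-119* copy and LIN-35 fused to GFP and FLAG under the *pie-1* promoter, with the *lin-35* 3′ UTR. The *pie-1* promoter is active in the germ line, and the labelled genotype lists no mutation of the endogenous *lin-35* gene. The antibody target is labelled lin-35, and the same labels describe the experiment as directed at a tagged LIN-35, so precipitation of the untagged protein cannot be told apart.

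The origin recognition complex (ORC) marks the places where DNA replication can start. CDC-6 and CDT-1 join it and load the MCM helicase onto DNA, a step called licensing, which cells confine to the part of the cycle before S phase so that no stretch of DNA is copied again. LIN-35 is the worm member of the retinoblastoma family, which acts with E2F transcription factors at cell cycle genes, and in human cells the genes for ORC1, CDC6 and CDT1 are well-known E2F targets. In the adult worm, most dividing cells lie in the germ line.

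LIN-35 peaks were found at the genes of 2 ORC subunits, *orc-1* and *orc-5*, and were not found at the other 5 members. A peak here means one of the 396 regions in the authors' list thresholded by irreproducible discovery rate (IDR). Of the 376 peaks on nuclear chromosomes, 357 (94.9%) overlapped a region in both replicate lists, and the rest did so in a single replicate list. The other peaks lie on mitochondrial DNA, and all ranks and shares over the 396 include them. The count of 2 of 7 members (28.6%) compares with 2.53% of all protein-coding genes that had such a peak within 1000 bp of the start. Both peaks lay in the weaker part of the thresholded list, at ranks 306 (*orc-5*) and 314 (*orc-1*) of 396 when ordered by the deposited signal, in which rank 1 is the highest. None of the 7 genes had a peak among the 198 strongest, where the share of all genes was 1.25%. The signal is the authors' enrichment value for a region, on a scale that no source states, and it is compared only within a list. Both peaks were also called within 500 bp (all genes 2.1%), within 250 bp (all genes 1.4%) and within 1000 bp of any transcript start (all genes 2.65%). The annotated start is often not where transcription begins, because many worm transcripts are trans-spliced. No test was made of these counts, since the members were chosen with earlier results known.

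The calls at *orc-1* and *orc-5* differed between the libraries. When replicate 2 stood alone, with its top 396 regions as the peaks, *orc-1* and *orc-5* were both called (all genes 2.28%). When replicate 3 stood alone in the same way, none of the 7 members was called (all genes 2.17%). In that list *orc-5* ranked 445, just outside the top 396, and *orc-1* had no region. The replicate 2 list had 20291 candidate regions, whereas the replicate 3 list and the pooled list had 30000 each. Depth is unknown, as the lists carry no read numbers.

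**Figure D1:**
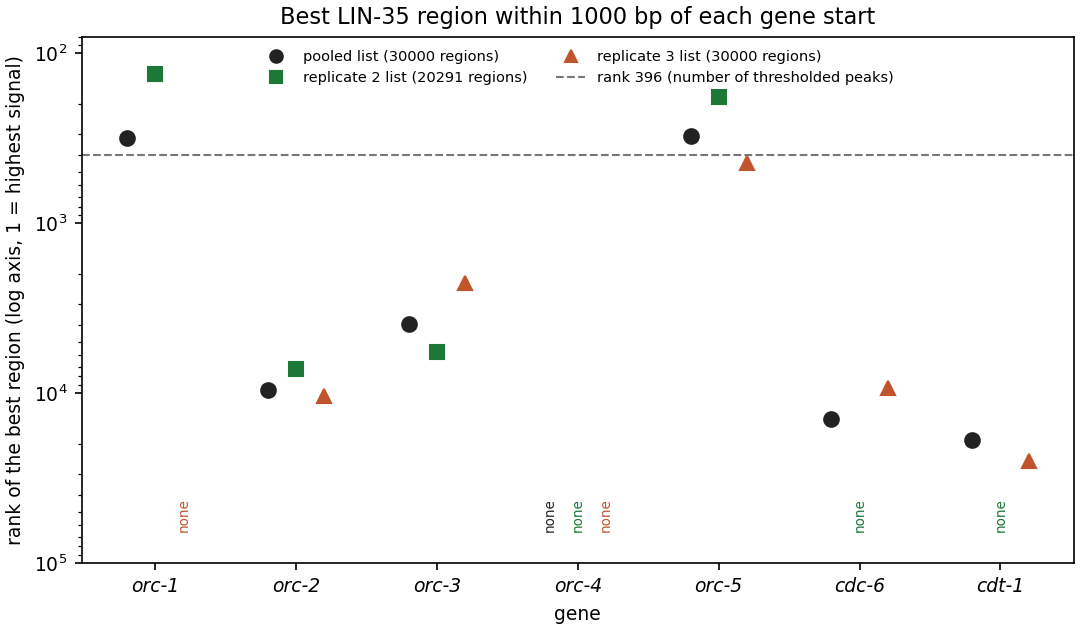
Rank of the best region within 1000 bp of each gene start in the pooled, replicate 2 and replicate 3 lists (log axis, high signal at the top), with "none" where a list had no such region. *orc-1* and *orc-5* stand above the dashed line at rank 396 in the pooled and replicate 2 lists, no member does in replicate 3, and the other members rank from 2249 downwards in every list.

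*orc-5* (WBGene00013857, chrIV:10732832-10734588, minus strand) encodes an ATPase-family subunit of ORC and had the highest signal of the 7 genes in the pooled list and in replicate 3, while *orc-1* was higher in replicate 2. Its peak spanned chrIV:10734580-10734875, with an intergenic summit 140 bp upstream of the *orc-5* start. The signal was 35.3 in the pooled list (rank 306), 24.1 in replicate 2 (rank 181) and 16.6 in replicate 3 (rank 445). The region was thus found in both libraries, with summits 10 and 12 bp from the pooled summit. Its rank of 445 in replicate 3 lies just outside the top 396 of that list. Among the 10591 genes with a pooled region within 1000 bp, 3.73% had a best rank as high as that of *orc-5*.

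The neighbour upstream of *orc-5* is *cyb-1*, the gene for the mitotic cyclin B1, which starts 628 bp away on the opposite strand. The thresholded summit was 488 bp upstream of the *cyb-1* start, so it was nearer to *orc-5*. Whether the peak relates to *orc-5*, to *cyb-1* or to both was not tested. A second, weaker region lay between the genes, with its summit 505 bp upstream of *orc-5* and 123 bp upstream of *cyb-1*. It had a signal of 12.1 in the pooled list (rank 6494) and 12.5 in replicate 2 (rank 635), and replicate 3 listed no region there.

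*orc-1* (WBGene00012650, chrIII:10643129-10646058, plus strand) encodes the ATPase subunit of ORC that is most closely related to CDC6 in other eukaryotes. Its peak spanned chrIII:10642823-10643118, with an intergenic summit 158 bp upstream of the *orc-1* start. The signal was 34.7 in the pooled list (rank 314) and 30.7 in replicate 2 (rank 132). Replicate 3 listed no region at *orc-1*, and its nearest region lay 5033 bp from the *orc-1* start with rank 29293. The lowest signal listed in replicate 3 was 4.64. Of the 376 thresholded peaks on nuclear chromosomes, 8 (2.13%) overlapped a region of replicate 2 and none of replicate 3, and the *orc-1* peak is one of them. The 8 peaks had pooled ranks from 131 to 390 and replicate 2 ranks from 49 to 334. At *orc-1* the region is therefore held by replicate 2 and the pool alone.

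The summit of the *orc-1* peak lies in the 263 bases between *orc-1* and *dhs-11*, and the peak extends into *dhs-11*, a gene on the opposite strand annotated as a hydroxyacyl-CoA dehydrogenase. The summit was 106 bp upstream of the *dhs-11* start and so nearer to *dhs-11* than to *orc-1*. When each peak was given to the gene with the nearest start alone, *orc-5* was called and *orc-1* was not, against 1.71% of all genes. The peak cannot be assigned to one of the neighbours from these data. A further pooled region, 714 bp upstream of *orc-1* in an intron of *dhs-11*, had a signal of 7.95 (rank 20033) and no counterpart within 1000 bp of *orc-1* in either replicate.

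**Figure D2:**
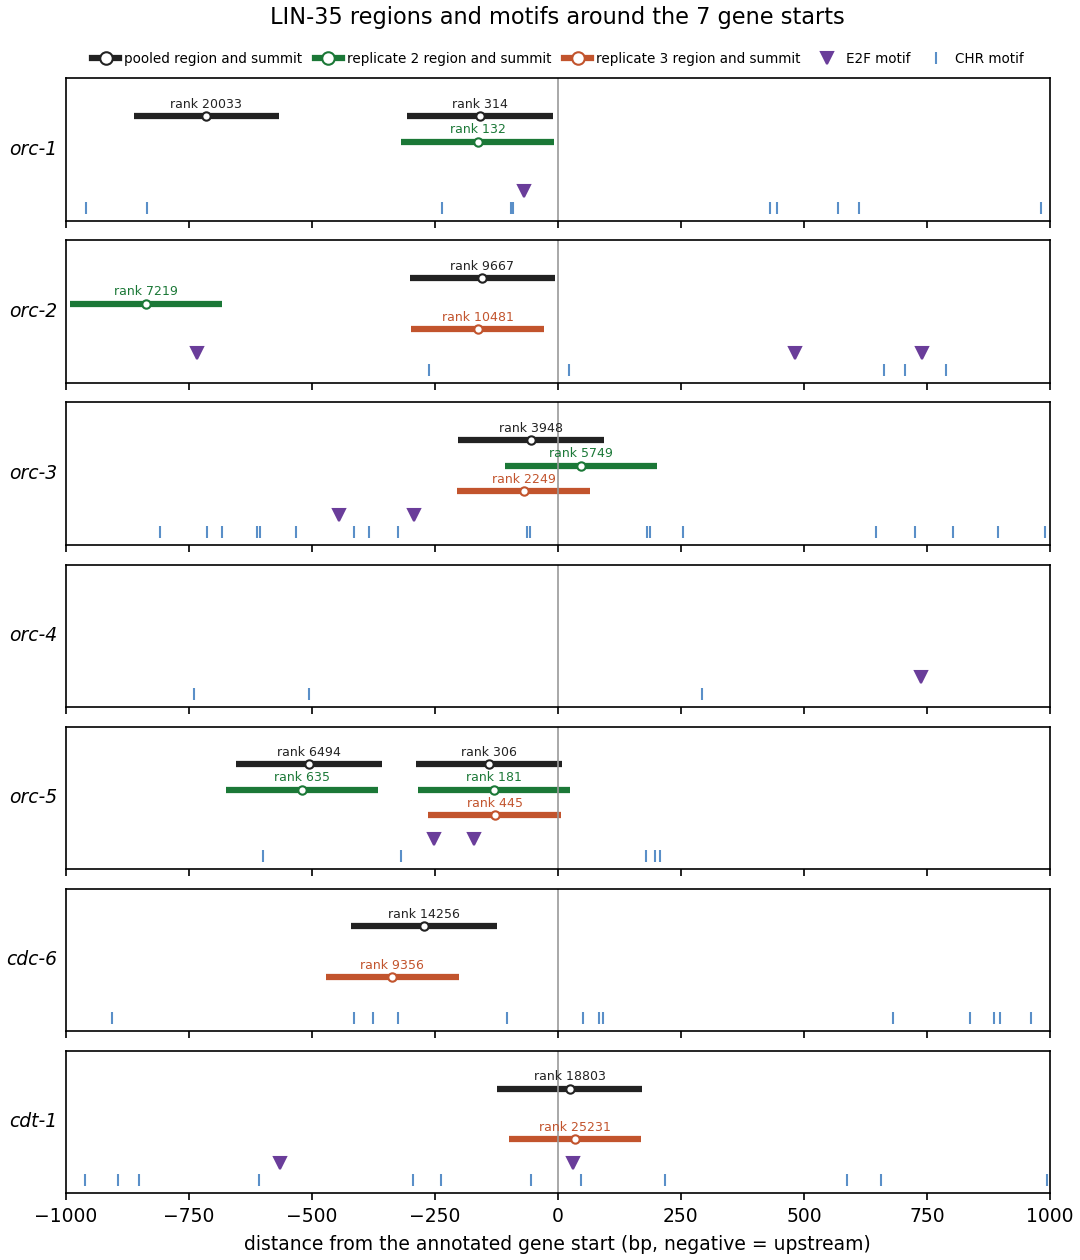
Regions of the pooled and replicate lists (bars, with the summit as an open circle and the rank printed above) and positions of E2F and CHR motifs, within 1000 bp of the 7 gene starts; the horizontal axis is the distance from the start in bp, with upstream to the left. At *orc-5* the pooled and replicate summits of the thresholded region coincide within 12 bp, and the second region is missing from replicate 3. At *orc-1* replicate 3 is empty, and at *orc-4* no list has a region.

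The E2F-like sequence at the *orc-1* and *orc-5* summits was the same heptamer, and it also occurred at the peaks of the helicase genes *mcm-2*, *mcm-3* and *mcm-7*. An E2F motif was counted as TTCCCGC or TTCGCGC or TTGCCGC or TTGGCGC on either strand within 100 bp of a summit. The matches are printed because *orc-1* and *orc-5* are the 2 members with a peak, and the *mcm* genes act in the next step of licensing. E2F motifs at other genes, among them *cdt-1*, the GINS subunit gene *psf-3* and the cyclin E gene *cye-1*, are not printed. Which form those motifs have is not given here. Each line is read 5′ to 3′ on the strand of the named gene, with the motif in capitals, from the RefSeq sequence of WBcel235.
orc-1: ttctcctcgatTTCGCGCattttcatcat
orc-5: tattttcaaggTTCGCGCtgcaatacgac
mcm-2: aagaggcgaggGCGCGAAgttgacgtttt
mcm-3: acggagcgagcGCGCGAAaccttgctgtt
mcm-7: aggaggcaaacGCGCGAAattcgaacgga

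The capitals read TTCGCGC along *orc-1* and *orc-5* and GCGCGAA, the same sequence on the other strand, along the *mcm* genes. At *orc-1* the match lay at chrIII:10643047-10643075 (window printed, plus strand), 90 bp from the summit and 68 bp upstream of the start. At *orc-5* it lay at chrIV:10734744-10734772 (minus strand), 30 bp from the summit and 170 bp upstream of the start. The printed *mcm-2* window is chrII:12006833-12006861 (minus strand), that of *mcm-3* chrV:15059726-15059754 (minus strand), which holds one of 2 matches at that peak, and that of *mcm-7* chrV:4347007-4347035 (plus strand). TTCGCGC or its reverse complement occurred in the 201 bp around 97 of the 396 thresholded summits (24.5%) and around 399 of the 29604 other pooled regions (1.35%). Any of the 4 E2F forms occurred around 49.7% and 7.24% of the same windows. The orientation and the choice of this form were noticed after the sequences were read, and a match is not evidence that a factor binds there.

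A CHR motif (cell cycle genes homology region), the element recognised by the DREAM subunit LIN-54, was counted as TTTGAA or TTCGAA on either strand. It is common sequence in this genome, present around 71.7% of thresholded summits and 52% of the other pooled regions. *orc-5* had none within 100 bp of its summit. *orc-1* had 3, of which a pair ran directly into each other, and the same adjacency, in the reverse order, was found at *orc-3*. The lines below show this paired element, in capitals, on the gene's own strand.
orc-1: gagagcgccactTTTGAATTCGAAagcgtt
orc-3: ctgggcgcggaaTTCGAATTTGAAtgggtt

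The *orc-1* pair (window chrIII:10643019-10643048) lay 62 and 68 bp from the summit, and 96 and 90 bp upstream of the start, on the upstream side of the E2F match. The *orc-3* pair (window chrIII:1208056-1208085) lay 9 and 3 bp from the summit of the *orc-3* region. Its region did not pass the IDR threshold. A further adjacent pair at *orc-3* lay 182 and 188 bp after the start, away from the summit. The adjacency was noticed after the sequences were read, and 2 adjacent CHR motifs in any order or orientation occurred around 6 of the 396 thresholded summits (1.52%) and around 94 of the 29604 other pooled regions (0.318%).

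*orc-3* (WBGene00022488, chrIII:1208133-1213650, plus strand), the gene of another ORC subunit, had the best region among the members without a peak. It covered chrIII:1207931-1208226 and its summit was 54 bp upstream of the start. The signal was 13.9 in the pooled list (rank 3948), 5.39 in replicate 2 (rank 5749) and 11.4 in replicate 3 (rank 2249). The deposited q-value of the pooled region was 0.0346, against 0.000604 for every thresholded peak. The region was found in both libraries, with the replicate 3 summit 15 bp from the pooled one. The replicate 2 summit was 47 bp after the start, in a coding exon of *orc-3* and more than 100 bp from the pooled summit. No E2F motif lay within 100 bp of the pooled summit, and the nearest was 292 bp upstream of the start.

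*orc-2* (WBGene00003882, chrII:10873931-10877683, plus strand), also an ORC subunit gene, had a weak region that the libraries placed differently. The pooled region at chrII:10873630-10873925 had its summit 153 bp upstream of the *orc-2* start, in the annotated 3′ UTR of *copz-1*, a coatomer subunit gene that ends 134 bases before *orc-2* on the same strand. Its signal was 10.6 (rank 9667, q-value 0.188), and replicate 3 had a matching region with a signal of 7.53 (rank 10481). Replicate 2 listed a different region, 837 bp upstream of *orc-2* in an intron of *copz-1*, with a signal of 4.8 (rank 7219). The *copz-1* start lies 1052 bp before the *orc-2* start, so the replicate 2 summit was nearer to *copz-1*. An E2F motif lay 734 bp upstream of *orc-2*, inside the replicate 2 region and also nearer to the *copz-1* start. Neither motif was present within 100 bp of the pooled summit. Whether *copz-1* and *orc-2* share a transcript was not examined here.

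*orc-4* (WBGene00012651, chrIII:10646170-10648861, plus strand), the gene of a further ORC subunit, had no region in any list within 1000 bp of its start. The gene begins 111 bases after the end of *orc-1* on the same strand, and in *C. elegans* genes this close on a strand are often transcribed together from the promoter of the first gene. Whether *orc-1* and *orc-4* share a transcript was not examined here. The nearest thresholded peak to *orc-4* was the *orc-1* peak, 3199 bp upstream of the *orc-4* start, and the nearest pooled region was inside *orc-4*, 2010 bp after the start, with a signal of 6.75 (rank 27223).

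In the pooled list, the loading factors had weaker regions than the 4 ORC subunit genes with a region. At *cdc-6* (WBGene00000382, chromosome I, 4268070 to 4270287, minus strand), whose product is an ATPase that joins ORC, the pooled region (chromosome I, 4270411 to 4270706) had a signal of 9.24 (rank 14256, q-value 0.338). Replicate 3 listed a region there with a signal of 7.83 (rank 9356), and replicate 2 listed none within 1000 bp. The pooled summit was 272 bp upstream of *cdc-6* and 107 bp upstream of *acin-1*, which encodes a SAP domain protein and starts 379 bp away on the opposite strand. *cdc-6* was the single member with no E2F motif within 1000 bp of its start on either side.

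At *cdt-1* (WBGene00000413, chromosome I, 3223160 to 3228104, minus strand), whose product brings the MCM helicase to ORC, the pooled region (chromosome I, 3227932 to 3228227) had a signal of 8.19 (rank 18803, q-value 0.471). Replicate 3 had the region with a signal of 5.16 (rank 25231), and the nearest region of replicate 2 lay 3585 bp from the start. The summit was 24 bp after the start, in the 5′ UTR. An E2F motif was centred 7 bp from this summit and 31 bp after the start, so a match close to the summit was present at a member with one of the weakest regions. At rank 18803, 26.7% of the genes with a pooled region ranked lower than *cdt-1*.

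Candidate regions as such were common near genes. Within 1000 bp of the start, 6 of 7 members had a region in the pooled list (all genes 53%), 4 of 7 in replicate 2 (all genes 40.1%), 5 of 7 in replicate 3 (all genes 53%) and 3 of 7 in both replicate lists (all genes 24.1%). The last rule asked for any region in each list, and its 3 members included *orc-2*, whose replicate regions did not overlap each other. The pooled count was 6 within 500 bp (all genes 34.4%), 5 within 250 bp (all genes 19.7%) and 6 within 1000 bp of any transcript start (all genes 56.3%). A candidate region below the threshold is not read here as binding. The best pooled ranks of the 6 members had a median of 6807.5, against 11190 over the 10591 genes with a region.

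**Figure D3:**
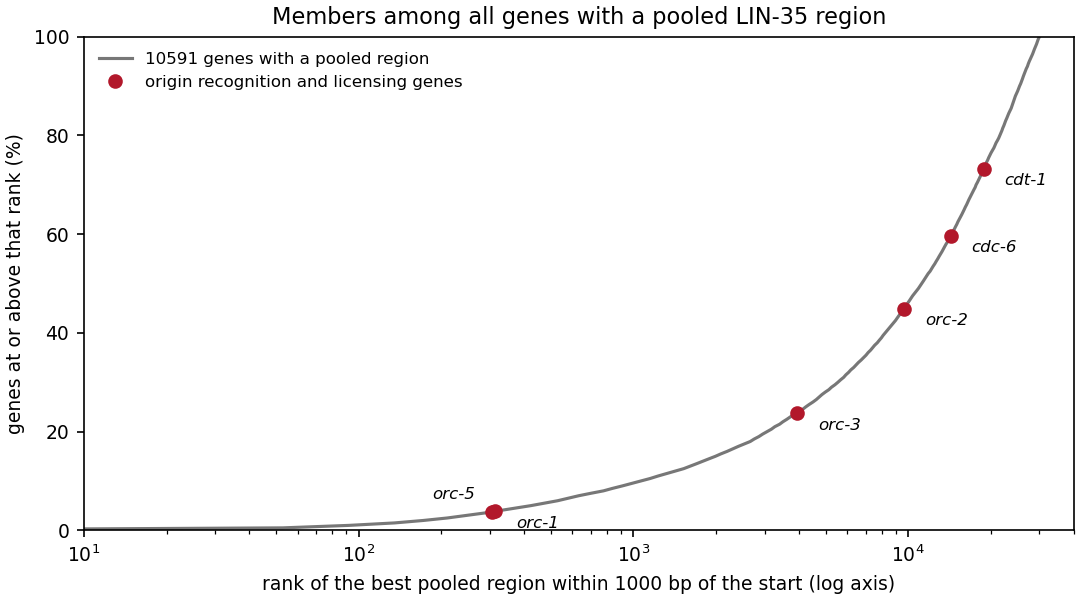
Cumulative share of the 10591 genes with a pooled region (vertical axis, percent) by the rank of their best region (log axis), with the 6 members that have one as red points. *orc-5* and *orc-1* lie at 3.73% and 3.84%, *orc-3* at 23.8%, and *orc-2*, *cdc-6* and *cdt-1* between 44.9% and 73.3%.

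Around the gene start itself, independent of any region, an E2F motif was present in the 300 bp from 250 bp upstream to 50 bp downstream at 3 of 7 members (*orc-1*, *orc-5* and *cdt-1*), compared with 9.2% of the starts of all 19973 nuclear protein-coding genes. A CHR motif was present at 5 of 7 members, compared with 68.9% of all starts, and was missing at *orc-4* and *orc-5*. These windows were added after the regions had been seen. The 2 members with a peak were thus among the 3 with an E2F motif near the start, and the third, *cdt-1*, had a region of rank 18803.

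The other genes of licensing and firing were examined as a list of 25 names, of which 24 matched the annotation. Peaks lay at 5 of the 24 (20.8%; all genes 2.53%), and 10 of 24 had one of the 1000 highest-ranked pooled regions (all genes 5.09%), compared with 2 of 7 ORC and loading factor genes. Of the 6 genes of the MCM helicase, which CDT-1 and CDC-6 load, 3 had a peak: *mcm-2* (signal 89.3), *mcm-3* (43.4) and *mcm-7* (40.2). The *mcm-3* and *mcm-7* summits also lay within 1000 bp of the starts of C25D7.15 and *hpo-18*, and *mcm-3* and *cye-1* were not called when each peak was given to the nearest start alone. Each rank given here is that of the best region within 1000 bp of the start in that list, and overlap between lists was not required. *mcm-2* ranked 46 in the pool, 71 in replicate 2 and 74 in replicate 3, well above *orc-5* in every list. The GINS subunit gene *psf-3* (38.5) had a peak, as did the cyclin E gene *cye-1* (40.3), the latter 561 bp upstream of *cye-1* with the start of *pqn-21* also within 1000 bp. *psf-3* ranked 131 in replicate 2 but 3694 in replicate 3, whereas *cye-1* ranked 179 and 271 in the same order. None of the 5 genes for inhibitors of re-licensing had a peak. The geminin gene *gmn-1*, whose product binds CDT-1, came closest with a signal of 28.4, just under the lowest thresholded signal of 30.0. The start of Y75B8A.18 also lay within 1000 bp of that summit. The best region near the *gmn-1* start ranked 18328 in replicate 2 and 243 in replicate 3. Within the pathway list *mcm-6*, another helicase subunit gene, had the lowest pooled rank, 19585, while *psf-2*, *evl-18* and *cki-1* had no pooled region. The start of R10E11.9 also lay within 1000 bp of the pooled *mcm-6* summit. The best region near the *mcm-6* start ranked 4471 in replicate 2 and 6745 in replicate 3, which need not be the pooled region. *evl-18* had a region in replicate 2 (rank 1559) and in replicate 3 (rank 19976). *psf-2* had one in replicate 2 (rank 6535), and *cki-1* had none in any list. The best pooled ranks had a median of 589.5 over the 6 helicase genes and of 1100 over the 21 listed genes with a region, against 6807.5 over the 6 members with one. An E2F motif was present at all 5 of the pathway peaks and at 9 of the 16 weaker pooled regions of the list, and among the members at both peaks and at 1 of the 4 weaker regions. The shares over all windows were 49.7% of thresholded peaks and 7.24% of other pooled regions.

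**Figure D4:**
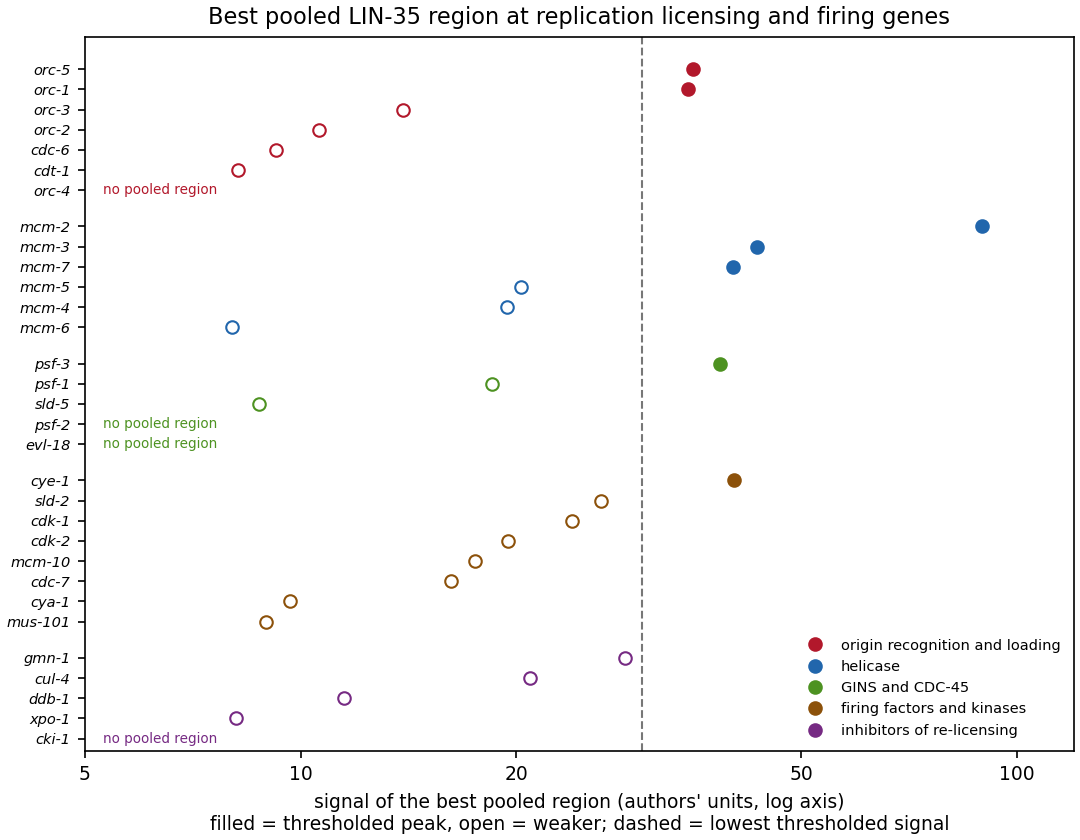
Signal of the best pooled region (log axis, authors' units) at each origin recognition and licensing gene and at 24 other genes of licensing and firing, grouped by role. Filled points are thresholded peaks and the dashed line is the lowest thresholded signal, 30.0; *orc-1* and *orc-5* lie just above it, while *mcm-2* stands at 89.3.

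By the sum of absolute log10 rank differences over the 3 candidate lists, the genes with the pattern most like *orc-5*, out of 4163 compared, were *ttc-37* (ranks 274 in the pool, 199 in replicate 2 and 443 in replicate 3; difference 0.0911), *rps-23* (ranks 323, 220 and 440 in the same order; difference 0.113) and *zip-4* (ranks 262, 143 and 441; difference 0.174). The measure needs a region in both replicates and could not be computed for *orc-1*.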

How the data were processed

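ChIP-seq peak lists of 2 libraries of LIN-35 were used. Per the deposited notes, the authors called candidate regions per replicate and on pooled alignments against a control, and took the thresholded list from these. The aligner, caller and IDR cutoff were not given in the sources used here. The deposited lists give an enrichment signal per region on an unstated scale, and −log10 q-values by their column order. Lists on ce10 were not analysed. All regions fitted the chromosome lengths of the WBcel235 reference, and each of the 396 thresholded peaks equalled one of the 396 highest pooled regions.

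Gene starts came from Ensembl release 115 and motif sequence from RefSeq. Regions were ranked by signal within a list, and a gene was called when a summit lay within 1000 bp of its start. Overlap between lists meant at least 1 bp. The genes and lists were chosen with earlier results of these data known, and no test was made. All 7 members, genes sharing their regions, pathway genes with a peak or at the ends of the ranking, and the 3 genes most like a member were named; *gmn-1* was chosen after its values were seen. The distance and motif searches were checked on made-up data and the gene calls against bedtools 2.31.1. Tables were made in Python 3.11.15 (pandas 2.3.3, numpy 2.4.6) and plots with matplotlib 3.10.9. Alternatives changed the distance, the start, the threshold, the replicates, the overlap and the motifs.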

Additional observations from a re-analysis of the deposited data

How the results depend on the processing

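The count of 2 members with a peak was the same within 500 and 250 bp, from any transcript start and with the 1000 highest-ranked pooled regions. It was 1 with the nearest gene alone and 0 among the 198 strongest peaks. Leaving out a replicate gave 0 to 2 members, with 0 when replicate 2 was left out. The 5 pathway genes with a peak became 3 within 250 bp, 3 with the nearest gene alone, 1 among the 198 strongest peaks and 10 with the 1000 highest-ranked regions, and 4 to 5 when a replicate was left out. The 2 members whose best pooled region overlapped a region of both replicates became 1 when summits had to lie within 100 bp. The share of all genes was not computed for either rule, so these counts have no background beside them. An E2F motif was present at 3 members' best pooled regions, at 2 with 50 bp on each side, and at 6 with TTNNCGC. The looser TTNNCGC was held by 75.3% of thresholded peaks and 25.1% of the other pooled regions. A CHR motif was present at 4 members' best pooled regions, and at 2 with 50 bp on each side. Over all windows with 100 bp on each side, the shares were 71.7% of thresholded summits and 52% of other pooled regions. No share was computed for the shorter window. The count of 6 members with a candidate region stayed between 4 and 6. No paired analysis was possible because both libraries belong to 1 group. The cause of these shifts was not tested.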
